A study of Mus musculus with 2 samples.

Results

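The genes described here encode the nuclear pore complex and the machinery that carries mRNA through it. They are 35 genes chosen by name, 28 of the pore and 7 of mRNA export, out of 55536 annotated genes and 22028 protein-coding genes. No measured value was a criterion of the choice, but it was made with earlier results of these data known. Their 251 annotated transcript models, out of 141767, were read from each transcript table. Total RNA without ribosomal RNA was sequenced from the nucleoplasmic fraction of C57BL/6J mouse macrophages grown from bone marrow and exposed to Lipid A, the part of bacterial lipopolysaccharide that macrophages sense, at 100 ng/ml for 40 min. The source label calls the fraction nuclear and the description calls it nucleoplasmic, and the description was followed. The 2 libraries form 1 group, biological replicates 1 and 2, and no other group was analysed here. Sex and age were not collected, and both libraries carry the same donor identifier, so their spread may be smaller than that between animals. Replicate 1 was made from 1 µg of RNA and replicate 2 from 500 ng, so input and replicate cannot be told apart.

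The nuclear pore is a ring-shaped channel in the nuclear envelope. Stacked scaffold rings, among them the Y complexes of the outer rings, hold a channel lined with disordered proteins rich in phenylalanine and glycine, which bind passing transport receptors. For export, the THO complex, the helicase DDX39B and the adaptor ALYREF load finished mRNA with the receptor NXF1 and its partner NXT1, and factors on the cytoplasmic face release it. Because the RNA measured here is nuclear, the values are levels of nuclear RNA and not of protein or of cytoplasmic mRNA. In such bulk libraries fewer cells with an RNA and less RNA per cell cannot be told apart.

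The libraries held 19630046 and 18434601 expected counts, which are estimated numbers of fragments. TPM, used for levels below, scales them by transcript length to the same total in each library. Macrophage markers were present as labelled, with 9 of 9 detected and a median of 299 TPM in replicate 1 and 127 in replicate 2. None of 22 markers of T cells, B cells, neutrophils, erythroid cells, fibroblasts and endothelial cells was detected in the alignment-based table, 8 had no count there in either library, and their summed level was 3.92 and 2.08 TPM. Of the 22, 2 were at 1 TPM or more in both replicates of the FASTQ-derived tables, the T cell marker Cd3d at 2.38 and 4.28 TPM (0.07 and 0.10 alignment-based) and the endothelial marker Pecam1 at 2.58 and 5.24 (0.56 and 0.50). TPM was lower in replicate 2 for 91.8% of detected protein-coding genes, with a shift of -0.50 of their median on the log2 scale, so the values of both replicates are given throughout.

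Most of the pore and export genes were present, at levels that ranged from under 1 to over 100 TPM. Detection required 1 TPM or more in each replicate and was reached by 29 of 35, against 40.0% of all protein-coding genes. A mean of at least 10 TPM was reached by 12 of the 29, against 42.0% of detected protein-coding genes, so high levels were about as frequent here as among detected genes in general. The median of the 35 genes was 5.59 TPM in replicate 1 and 3.68 in replicate 2, below the 8.64 and 6.12 TPM of the median detected protein-coding gene. On the log2(TPM + 1) scale the difference was -0.58 ± 0.04 (SD, n = 2). It was the median of a set that includes undetected genes set against detected genes only. In both replicates 12 genes lay above the median detected gene and 22 below it, and Nup93 lay above it in replicate 1 only.

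The order of the roles by median level depended on the kind of table and in part on the replicate. Each median rests on few genes: 7 for mRNA export, 5 for the cytoplasmic side, 3 each for the central channel and nuclear basket. The inner ring has 5, the Y complex 8 and the membrane ring 4. In the alignment-based tables the medians were 28.7 and 21.4 TPM in replicates 1 and 2 for mRNA export, 20.9 and 13.2 for the cytoplasmic side, 18.5 and 14.4 for the central channel and 17.4 and 9.83 for the nuclear basket. They were 5.59 and 3.96 TPM for the inner ring, 2.80 and 2.58 for the Y complex and 1.81 and 1.65 for the membrane ring. In the FASTQ-derived tables the central channel came first, at 26.0 and 21.9 TPM, before mRNA export at 12.5 and 12.6, while the inner ring, the Y complex and the membrane ring were again the last 3, in that order. Within roles the spread was wide: the highest mRNA export gene exceeded the lowest 217-fold by mean TPM, and the highest Y complex gene the lowest 26.8-fold. Length of the gene on the chromosome tracked the level little, with a Spearman rank correlation of 0.17 over the 35 genes.

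**Figure D1:**
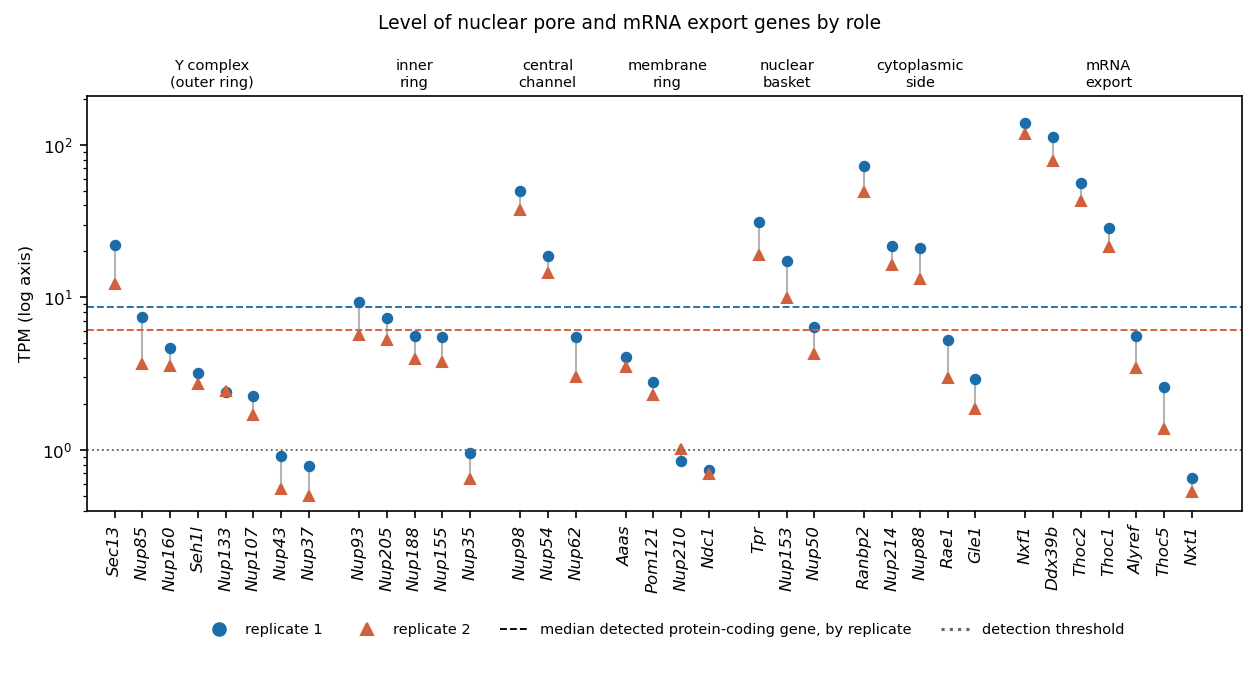
TPM of each of the 35 genes (log axis) in replicate 1 (circles) and replicate 2 (triangles), grouped by role and ordered by mean; dashed lines mark the median detected protein-coding gene of each replicate and the dotted line the detection threshold of 1 TPM. Export factors, the cytoplasmic side, the channel and the basket hold the 5 highest genes and all but 1 of the 12 above 10 TPM; the other is Sec13 of the Y complex.

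The mRNA export receptor gene Nxf1 (ENSMUSG00000010097, mm10, chromosome 19, 8757073 to 8770922, plus strand) was the highest of all, at 138 TPM in replicate 1 and 118 in replicate 2, or 128 ± 14.1 (SD, n = 2). Its obligate partner Nxt1 had the lowest mean, at 0.65 and 0.53 TPM, on 11 expected counts in each library. In replicate 2 Nup37 was lower still, at 0.50 TPM. The ratio of Nxf1 to Nxt1 was 213 in replicate 1 and 223 in replicate 2. Without transcript models under 600 nt it was 101 and 118. The FASTQ-derived tables, a further quantification that did not use the alignment, gave ratios of 108 and 201. With so few Nxt1 counts, the size of the ratio is uncertain.

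Ddx39b, the helicase that works before NXF1 (chromosome 17, 35241746 to 35253707, plus strand), was next with 113 and 77.7 TPM. The replicate ranges of Ddx39b and Nxf1 did not overlap in these tables. The large scaffold subunit of the THO complex, Thoc2 (chromosome X, 41794991 to 41920674, minus strand), had 55.9 and 43.0 TPM. Its partner Thoc1 had 28.7 and 21.4. A further subunit, Thoc5, was far lower at 2.60 and 1.36, so the 3 listed THO genes differed by more than their replicates did. Alyref, the adaptor, had 5.61 and 3.45 TPM.

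On the cytoplasmic side Ranbp2, whose product forms long filaments that bind the GTPase Ran and attach SUMO, led at 72.7 and 48.8 TPM (chromosome 10, 58446920 to 58494356, plus strand). Its replicate range overlapped that of Thoc2. It also had the most expected counts of the 35 genes, 12417 and 10810. Nup214 and Nup88, which form a docking complex for export, were close together, at 21.8 and 16.2 TPM for Nup214 and 20.9 and 13.2 for Nup88. Their replicate ranges overlapped. Rae1, an export factor that binds NUP98, had 5.21 and 2.97. Gle1, which activates the helicase that strips export factors from mRNA, had 2.91 and 1.85.

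In the alignment-based tables the central channel was led by Nup98 (chromosome 7, 102119398 to 102210176, minus strand), a mobile nucleoporin with phenylalanine-glycine repeats, at 49.6 and 37.6 TPM. Nup54 had 18.5 and 14.4, and Nup62, its partner in the channel, 5.47 and 3.01. These 3 genes did not overlap in level there, but in the FASTQ-derived tables Nup54, at 34.9 and 33.9 TPM, was above Nup98, at 26.0 and 21.9. In the nuclear basket Tpr, the filament protein, had 31.3 and 18.9 TPM, Nup153 17.4 and 9.83 and Nup50 6.40 and 4.22. Each basket gene kept its place in both replicates, although Tpr in replicate 2 was close to Nup153 in replicate 1.

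Among scaffold genes Sec13, which serves both the Y complex and the COPII coat of secretory vesicles, was the highest. It had 22.0 and 12.3 TPM. Nup85 had 7.48 and 3.68, Nup160 4.62 and 3.57, and Seh1l 3.19 and 2.72. Nup133 and Nup107 were close, at 2.41 and 2.44 against 2.26 and 1.70. Within the inner ring each of 4 genes overlapped the next in the order: the organiser Nup93 had 9.25 and 5.69 TPM, its large partners Nup205 7.35 and 5.23 and Nup188 5.59 and 3.96, and Nup155 5.50 and 3.74. In the membrane ring Aaas, which encodes aladin, had 4.09 and 3.48, and the membrane-spanning Pom121 2.77 and 2.29.

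Undetected were 6 genes, each close to the threshold rather than at 0. The Y complex genes Nup43 and Nup37 had 0.91 and 0.55 TPM and 0.78 and 0.50. Nup35 of the inner ring had 0.96 and 0.64. The membrane proteins Ndc1 and Nup210 had 0.74 and 0.69, and 0.84 and 1.01, so that Nup210 passed in replicate 2 only. Together with Nxt1 they had between 11 and 89 expected counts per library. The authors' credibility intervals of the posterior mean reached 1 TPM for all 6 genes in replicate 1 and for 5 in replicate 2. For Nup210 the interval lay wholly above 1 TPM, at 1.20 to 3.26 in replicate 1 and 1.19 to 2.98 in replicate 2. The place of the 6 genes below the threshold is thus not firm.

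The transcript models of Nxf1 showed that most of its counts sat in a model that keeps an intron. Nxf1-209 is annotated as protein-coding, has 20 exons and 4042 nt, and holds in full intron 10 of the 20 introns of the reference model Nxf1-201, which is the coding model with the longest coding sequence. This intron spans 1765 nt (chr19:8765032-8766796, plus strand, 54.7% GC) between coding exons. As background, an intron of NXF1 is known to be retained in a transcript that leaves the nucleus through a structured element, the constitutive transport element, which the NXF1 protein itself binds. The annotated coding part of Nxf1-209 runs 241 bases into the intron, to position 8765272, and the next codon is TGA, a stop. The sequences show both edges of this intron, because reads across them separate the models: the capitals are the first and last bases of the intron, and in the joined sequence the exon bases that splicing brings together.
Nxf1-209, exon into intron, chr19:8765017-8765061, plus strand: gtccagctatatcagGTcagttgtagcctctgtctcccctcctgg
Nxf1-209, intron into exon, chr19:8766777-8766806, plus strand: ttctgtcccgttcttgacAGcgccattcgc
Nxf1-201, exons joined: gtccagctatatcaGCgccattcgcgaacg

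Of the expected counts of the gene, Nxf1-209 took 3236 in replicate 1 and 5341 in replicate 2, or 67.6% and 82.6%. The spliced Nxf1-201 took 1154 and 704. The intron-holding model was thus higher in both replicates, 2.80-fold and 7.59-fold by counts. The FASTQ-derived tables gave it 65.8% and 72.9% of the counts and ratios to Nxf1-201 of 2.09 and 3.26. The direction was the same in both kinds of table, while the size of the ratio differed between replicates by more than 1.5 times. Counts here are assigned by a model of shared reads, and reads over the junctions themselves were not analysed here. Whether the intron reads came from a finished transcript or from nuclear RNA not yet spliced was not tested. The same limit holds for every intron-holding model described below.

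By TPM, which divides by length, the picture of Nxf1 was different in the alignment-based tables. Nxf1-209 had 39.2 and 48.9 TPM, 28.4% and 41.3% of the gene, and Nxf1-201 25.3 and 11.7. In replicate 1 the model with the most TPM was Nxf1-203, a processed transcript of 431 nt at the 3′ end of the gene, with 58.3 and 27.1 TPM on only 283 and 156 expected counts. Nxf1-208, a coding fragment of 505 nt, added 13.7 and 27.5 TPM. Models under 600 nt held 52.3% and 46.9% of the TPM of Nxf1 but 7.80% and 5.88% of its counts. Without them Nxf1 had 65.9 and 62.8 TPM, second among the 35 genes behind Ddx39b at 113 and 77.7. In the FASTQ-derived tables, too, Ddx39b had the higher mean, at 50.04 and 40.6 TPM against 37.1 and 47.95 for Nxf1, with overlapping ranges. There Nxf1-209 was the Nxf1 model with the most TPM in both replicates, at 42.5% and 42.3% of the gene. Over all 35 genes, the 70 models under 600 nt held 18.01% and 16.9% of TPM and 1.61% and 1.39% of counts.

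**Figure D2:**
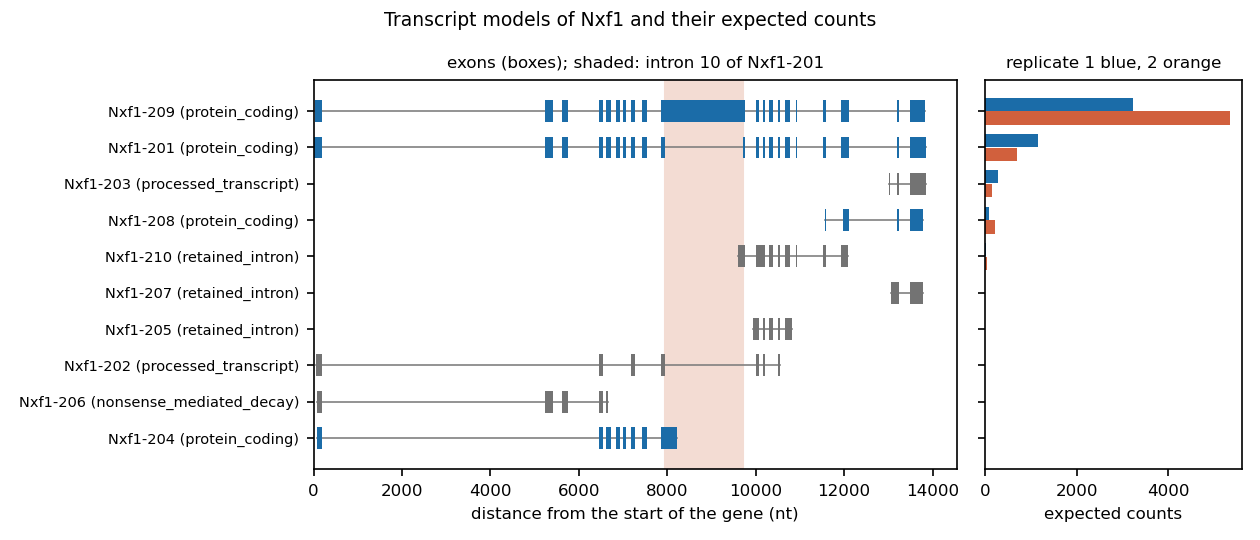
Exons of the 10 annotated Nxf1 models by distance from the start of the gene in nucleotides (left; blue boxes, protein-coding; grey, other; shaded, intron 10 of Nxf1-201) and the expected counts of each model (right; blue, replicate 1; orange, replicate 2). Nxf1-209, whose box fills the shaded intron, has 3236 and 5341 counts, more than any other model.

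Since the biotype of Nxf1-209 is protein-coding, a search by annotated biotype misses it: models of the retained_intron class took 1.19% and 2.63% of Nxf1 TPM. Counted by exon structure instead, 14 detected genes had a model that spans a whole intron of their reference model, and in 2 of them, Nxf1 and Thoc1, such models took over 50% of expected counts in both replicates. Among detected protein-coding genes with such a model, 12.7% did. Structure gave 68.1% and 83.2% for Nxf1 and 51.7% and 54.6% for Thoc1. Nxf1 was the only detected gene here with a protein-coding model of this kind. Among the 474 detected protein-coding genes with such a coding model, 15.2% had over 50% of counts in it.

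Models of the retained_intron biotype, which keep all or part of an intron and are annotated as non-coding, were present for 22 of the 29 detected genes. They took over 50% of TPM in both replicates in 4 of the 22, against 12.6% of detected protein-coding genes with such a model. Of the 22 genes, 10 were over 25% of TPM in both replicates, against 44.1% of those protein-coding genes, and 8 under 25% in both, against 41.0%. The median share over the 22 was 32.1% and 22.8%, beside 26.6% and 25.2% over all detected protein-coding genes with such a model. By expected counts it was 9.56% ± 1.503, beside 14.4% ± 0.53 (SD, n = 2). Summed over all 35 genes, the share was 28.1% ± 1.90 of TPM and 14.1% ± 1.03 of counts (SD, n = 2). Short models weigh more in TPM than in counts, so the shares of counts were mostly lower. The share went up only loosely with the number of such models a gene has, at a Spearman correlation of 0.38 over 22 genes, whose models share the same libraries.

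The THO subunit Thoc1 had the largest share among the detected genes, 84.2% and 86.5% of TPM and 66.4% and 69.0% of counts. Of its 13 models 11 are of this class. Thoc1-211, with 14 exons and 1875 nt, had 11.2 and 7.92 TPM, against 4.07 and 2.89 for the spliced coding model Thoc1-201. Nup88 followed at 75.0% and 65.3% of TPM and 64.9% and 57.3% of counts, with 11 such models among 15. These 2 genes were over 50% by TPM and counts in both kinds of table.

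Sec13 and Gle1 passed by TPM only. Sec13 had 51.9% and 54.8% of TPM but 26.7% and 31.2% of counts, since Sec13-202 is 492 nt long and had 9.40 and 5.57 TPM on 57.9 and 41.8 counts. Its FASTQ-derived TPM share was 36.2% and 41.5%, below 50%. Gle1 had 53.6% and 53.8% of TPM but 16.7% and 17.2% of counts, and 70.9% and 65.6% of FASTQ-derived TPM. Among the undetected genes, Nup43 had 80.0% and 92.7% of its TPM in such models, on 19 and 23 counts in all. Just under the limit was Ddx39b, at 45.1% and 46.2% of TPM. Nup107, at 44.3% and 54.4%, was over it in replicate 2 only, and had 7.89% and 11.3% of counts in such models.

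Abundant genes with a smaller share still had sizeable TPM assigned to these models. Ddx39b was split evenly: Ddx39b-204, a retained-intron model of 6 exons, had 51.0 and 35.9 TPM, against 46.6 and 33.3 for the coding model Ddx39b-201. By expected counts Ddx39b-204 took 44.4% and 43.9%, and the FASTQ-derived counts gave 45.0% and 43.6%, so the split was similar in both replicates and both kinds of table. Ranbp2-202 had 13.4 and 10.9 TPM beside 57.8 and 37.4 for the coding Ranbp2-201, and took 5.58% and 6.86% of counts. Thoc2-211 had 8.69 and 6.25 TPM beside 20.97 and 20.3 for the coding Thoc2-201.

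Among the models of Nup98, the one with 33 exons and 6694 nt, Nup98-203, encodes the long precursor that is cut into NUP98 and NUP96. It had 11.5 and 9.79 TPM, and its share of expected counts was 38.6% and 41.6%. The retained-intron model Nup98-202 had 15.3 and 9.05 TPM, which put it first by TPM in replicate 1 and second in replicate 2. A further one, Nup98-207, had 7.86 and 4.57. The 4 shorter coding models each run into the 5′ part of an intron of Nup98-203, though they are not of the retained_intron class. It is intron 20 for Nup98-204 and Nup98-205 and intron 23 for Nup98-201 and Nup98-206. Of these 4, Nup98-204 had the most TPM in replicate 1, at 6.82 and 4.24, and Nup98-206 in replicate 2, at 2.75 and 5.51. The order of the shorter coding models thus differed between replicates, while the precursor model led by counts in both.

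**Figure D3:**
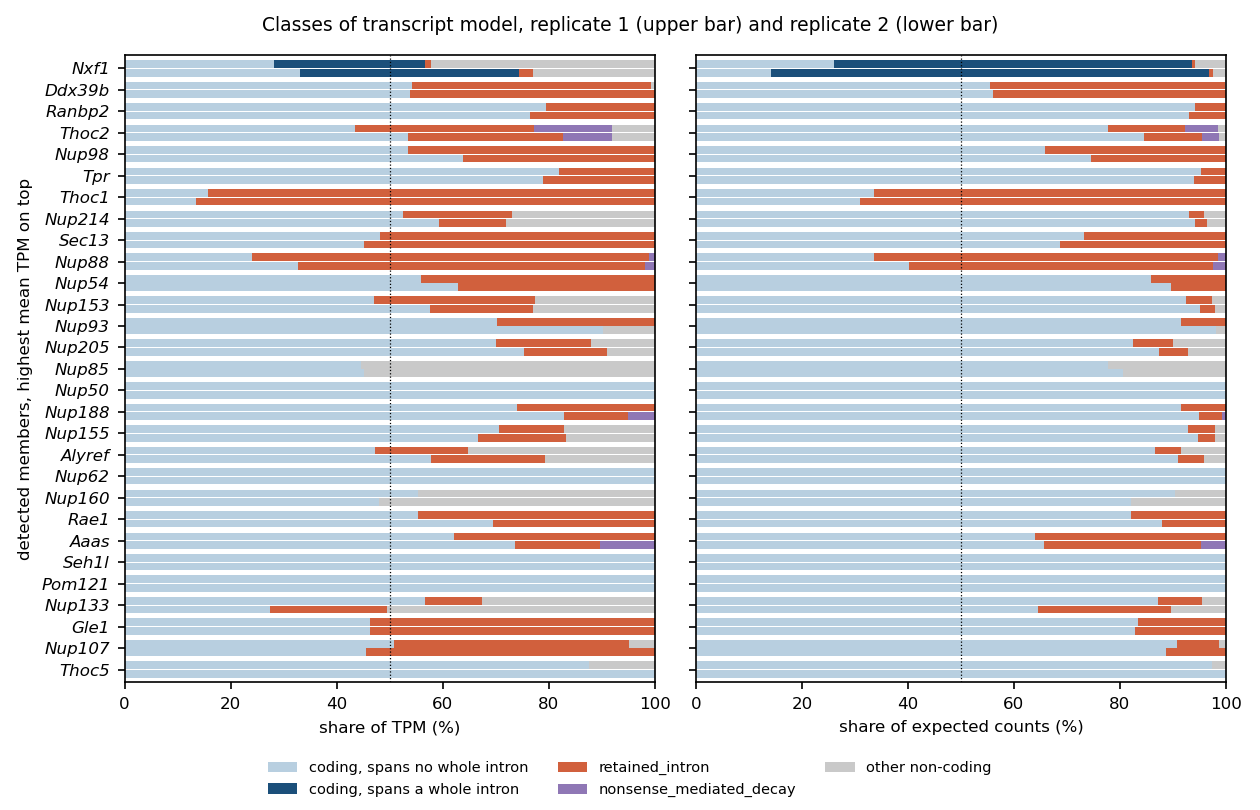
Share of each gene's TPM (left) and expected counts (right), in percent, held by classes of transcript model, for the 29 detected genes ordered by mean TPM; the upper bar of each pair is replicate 1, the lower replicate 2, and the dotted line marks 50%. The dark blue part appears for Nxf1 only (67.6% and 82.6% of counts), and the orange retained_intron part exceeds 50% of counts for Thoc1 and Nup88 only.

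The introns that annotated models keep have the usual ends, which describes the annotation and not these libraries. Over 28 genes, 81 introns kept in full or at their 5′ part were read from the transcript sequences. Kept introns of Thoc1 and Seh1l were not read, although Thoc1 had the largest share in retained-intron models among the detected genes. All 81 start with GT, and all 24 kept whole end in AG. Some are kept only in models with 0 counts in both libraries of the alignment-based tables, such as intron 9 of Nup107 and intron 1 of Nup210. The sequences below are from retained-intron models of the genes just described, with the intron's first or last bases in capitals. They show kept introns of very different size: 359 nt in Ranbp2-202 (intron 5 of 28), 490 nt in Thoc2-211 (intron 28 of 38) and 315 nt in Sec13-202 (intron 6 of 8), all whole. Nup88-204 holds 5 small introns in a row, of 92 to 243 nt, the last of which is shown. Only the 5′ part is kept in Ddx39b-204 (intron 5, 2177 nt), Nup98-202 (intron 10, 3971 nt) and Gle1-206 (intron 9, 4831 nt). In each, an exon runs into the intron and does not span it.
Ranbp2-202, exon into intron, chr10:58455435-58455479, plus strand: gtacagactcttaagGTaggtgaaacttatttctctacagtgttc
Ranbp2-202, intron into exon, chr10:58455789-58455818, plus strand: gtgtttttcttaaaaattAGgaatatctgg
Thoc2-211, exon into intron, chrX:41823332-41823376, minus strand: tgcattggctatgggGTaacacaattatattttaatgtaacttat
Thoc2-211, intron into exon, chrX:41822862-41822891, minus strand: acactttgtgcgactttcAGctactcgggg
Sec13-202, exon into intron, chr6:113730744-113730788, minus strand: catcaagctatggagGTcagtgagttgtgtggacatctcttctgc
Sec13-202, intron into exon, chr6:113730449-113730478, minus strand: tgctctgatttcctctgcAGggaagaggag
Nup88-204, exon into intron, chr11:70944082-70944126, minus strand: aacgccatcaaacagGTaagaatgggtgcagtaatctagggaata
Nup88-204, intron into exon, chr11:70943988-70944017, minus strand: tgttctgtttggtacttgAGgttactatga
Ddx39b-204, exon into intron, chr17:35249055-35249099, plus strand: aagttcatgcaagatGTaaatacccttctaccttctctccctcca
Nup98-202, exon into intron, chr7:102180347-102180391, minus strand: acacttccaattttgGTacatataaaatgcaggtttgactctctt
Gle1-206, exon into intron, chr2:29944044-29944088, plus strand: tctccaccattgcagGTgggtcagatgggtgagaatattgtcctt

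The leading model of each gene depended on the measure. By expected counts it was protein-coding in both replicates for 30 of 35 genes. It was the same model in both replicates for 32 genes, and in both replicates and both kinds of table for 28. By TPM these counts were 28 and 15. The order of the 35 genes by mean TPM was close in both kinds of table, with a Spearman correlation of 0.97. Taken over the median detected gene, however, the level moved by more than its replicate SD (n = 2) in 23 of 35. The SD of that ratio was very small for some genes, such as 0.003 for Nup205, so this count is a loose one.

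By counts the leading model differed between the kinds of table in 7 genes. In both replicates it did so for 2. For Nup93 the alignment-based table gave 325 and 269 counts to Nup93-201 and 0 to Nup93-202, while the FASTQ-derived table gave 14.6 and 0 to Nup93-201 and 399 and 651 to Nup93-202. For Tpr the alignment-based table favoured Tpr-201, at 1971 and 1908 counts, and the FASTQ-derived table Tpr-203, at 2059 and 1971. The others were Nup88, Nup62, Nup43, Nup35 and Nxt1, of which the last 3 had under 30 counts in the alignment-based table.

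By TPM the leading model differed between the kinds of table in 18 genes, and for 6 of them in both replicates: Nup37, Nup54, Nup62, Nup93, Tpr and Alyref. The other 12 differed in a single replicate: Nup107, Nup85, Nup43, Sec13, Nup155, Nup35, Nup210, Nup88, Gle1, Nxf1, Nxt1 and Thoc2. Nup54 stands out also as a whole gene, at 34.9 and 33.9 TPM in the FASTQ-derived tables against 18.5 and 14.4. Its coding fragment Nup54-204, of 397 nt, had 12.4 and 9.67 TPM there against 0.97 and 0.00. Nup62 likewise had 5.33 and 7.24 against 5.47 and 3.01, with 3.21 and 5.67 of it in Nup62-202, of 334 nt, which had 0.35 and 0.00 in the alignment-based tables.

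**Figure D4:**
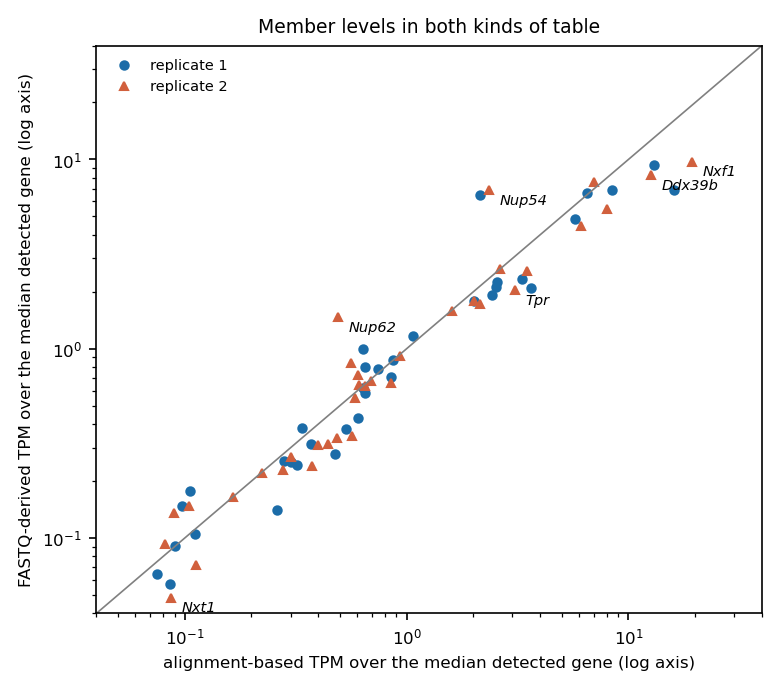
TPM of each gene over that of the median detected protein-coding gene, alignment-based (horizontal) against FASTQ-derived (vertical), both on log axes, with the line of equality; circles are replicate 1 and triangles replicate 2. In both replicates 3 genes, Nup43, Nup54 and Nup62, lie over 1.5 times above the line and 3, Nxf1, Tpr and Aaas, over 1.5 times below it.

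After scaling for library composition, no gene of the 35 passed 1.5-fold between replicates (0.585 on the log2 scale). Of protein-coding genes with a mean of at least 10 counts, 12.1% did. Shares of such genes, here and below, were not matched to the 35 by count, on which the spread of a ratio depends. The log2 ratio of replicate 2 over replicate 1 had a median of 0.03, beside 0.02 for all such genes, and 19 of 35 genes were higher in replicate 2, against 52.2%. By log2 ratio of TPM + 1, which does not correct for composition, 33 of 35 were lower in replicate 2 in place of 16. There is no test here, since each ratio compares 2 libraries.

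The highest ratio was that of Nxf1, 0.53, with an exact 95% counting interval of 0.48 to 0.59. The FASTQ-derived counts gave 0.47. Nxf1 counts were 4784 and 6468, of which Nxf1-209 had 3236 and 5341 and Nxf1-201 1154 and 704. Thoc2 had 0.31 (0.26 to 0.37), Nup54 0.37 (0.20 to 0.55), Pom121 0.23, Nup214 0.20 and Nup98 0.17. In the FASTQ-derived counts the ratio was 0.19 for Thoc2, 0.07 for Nup54, 0.12 for Pom121, 0.11 for Nup214 and 0.02 for Nup98. The lowest was Nup85 at -0.56 (-0.91 to -0.23), on 187 and 118 counts. The other lower genes whose interval left out 0 were Sec13 at -0.35, Nup62 at -0.33, Tpr at -0.17, Nup153 at -0.13 and Ranbp2 at -0.10. The FASTQ-derived counts gave these lower genes between -0.40 (Nup85) and -0.04 (Nup153). For these 6 higher and 6 lower genes, 12 of 35, the interval left out 0, against 39.8% of protein-coding genes with a mean of at least 10 counts. Such intervals cover counting error only, and the reads carry no molecular identifiers that would separate molecules from PCR copies.

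**Figure D5:**
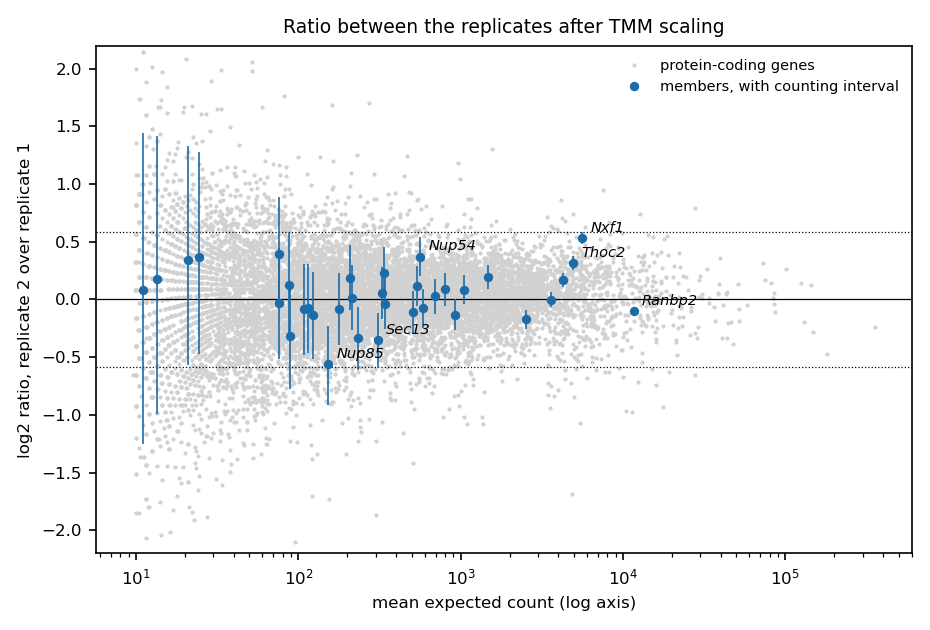
Log2 ratio of replicate 2 over replicate 1 after scaling, against the mean expected count (log axis), for protein-coding genes (grey) and the 35 genes (blue, with exact 95% counting intervals); dotted lines mark 1.5-fold, and 23 grey genes lie beyond the axis. All 35 points lie between the dotted lines, with Nxf1 highest at 0.53 and Nup85 lowest at -0.56.

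Of 61 further genes of the pore, mRNA export, the Ran cycle and the transport receptors, listed apart from the 35, 49 were detected, and their median was 5.69 and 4.15 TPM, near that of the 35. All 16 importins and 7 of 8 exportins were detected, with 5 of 6 Ran cycle genes, 15 of 21 mRNA export genes and 6 of 10 pore genes. The 5 highest were Zc3h11a, a zinc-finger protein of mRNA export, at 90.9 and 84.4 TPM, Leng8 at 94.8 and 80.4, the exportin Xpo1 at 38.9 and 24.9, the tRNA exporter Xpot at 33.6 and 25.8, and Poldip3 at 31.8 and 21.4. Of the 61, Zc3h11a and Leng8 alone reached the range of Ddx39b.

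The undetected 12 included close relatives of abundant genes. The Nxf1 paralogues Nxf2, Nxf3 and Nxf7 and the pore gene Nup62cl had 0 counts in both libraries, which allows up to 3 counts, or 0.154 and 0.163 CPM (counts scaled to library size). Nxt2, a paralogue of Nxt1, was as low as Nxt1, at 0.46 and 0.34 TPM. Nupl1, which encodes NUP58, the partner of NUP62 and NUP54 in the channel, had only 0.10 and 0.02 TPM. Alyref2 had 0.75 and 0.37, Nupl2 0.57 and 0.59, and Nup210l 0.16 and 0.18. Thoc3, with 1.12 and 0.81, Phax, with 2.19 and 0.89, and Nutf2, with 2.00 and 0.77, passed in replicate 1 only. In the FASTQ-derived tables, which detected 48 of the further genes, Nutf2 passed in both replicates, at 3.74 and 3.19 TPM. Phax, at 1.28 and 1.06, and Nupl2, at 1.15 and 1.17, did so too.

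Other genes share sequence with some of the 35. In the annotation 18 of them overlap another gene, and 7 overlap a detected gene on the opposite strand: Nup133, Nup43, Nup62, Tpr, Nup88, Nup214 and Thoc1. The overlap covers all 52143 bases of Nup133, whose opposite-strand gene Gm20388 had 3.72 and 5.54 TPM against 2.41 and 2.44. It also covers all 11379 bases of Nup43, within Pcmt1 at 7.10 and 5.09 TPM. For Nup88 it is 48 bases, with Rabep1, and for Thoc1 2424 bases, with Usp14 at 17.2 and 14.6 TPM. Nup62 lies on the same strand as the larger Il4i1, at 1.48 and 0.81. Whether the quantification used strand is not given in the sources used here, so the share of such reads in these levels was not tested.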

How the data were processed

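The deposited values are 1 alignment-based gene table, 1 alignment-based transcript table and 1 FASTQ-derived transcript table per library, on mm10 with GENCODE M21 per the labels deposited with them. The sources used here name neither the aligner nor the quantifiers, nor whether strand was used. According to the file headers, the authors gave expected counts (estimated counts in the FASTQ-derived tables), which need not be whole, and TPM, corrected for effective length and scaled to a fixed total over all features. FPKM as deposited, scaled by length and assigned fragments, served as an alternative. The authors' bounds of the credibility interval of a posterior mean TPM were read as a score on the TPM scale. Identifiers that name no annotated gene held 0.672% and 0.196% of expected counts and were left out. FASTQ-derived totals were 26929533 and 33536257 estimated counts.

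The 35 genes were matched by name, and all were found. The genes, lists and rules were chosen with earlier results of these data known. Named with values were all genes of the 35, and of the further list the 5 highest and every undetected gene. A share is the summed TPM or counts of a class of models over all models of the gene. A kept intron was read from exon structure in GENCODE M21, and its sequence from the GENCODE transcripts, in bases 15 before to 30 after its start. Ratios used expected counts rounded to whole numbers, TMM scaling and a prior count of 2 in edgeR 4.0.16 (R 4.3.3), tested on simulated data with 200 changed genes. DESeq2 1.42.0 size factors were an alternative. Alternatives also changed the thresholds, the table, the pseudocount of 1 and the low-count filter of 10, and those by exon structure, without short models, on the further list and for markers and role medians in the FASTQ-derived tables were chosen after seeing the data. Phenylalanine-glycine content of the proteins was planned and not analysed here. With 1 group no test between conditions was made, and no p-value is given.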

Additional observations from a re-analysis of the deposited data

How the results depend on the processing

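No paired analysis was possible because the libraries form a single group. Detection held 29 of the 35 genes, between 28 and 35 under the other tables, units and the threshold of 0.5 TPM, but 14 at a threshold of 5 TPM. Leaving out a replicate gave 29 to 30. The median level was 4.64 TPM, 3.68 to 5.59 with a replicate left out, and 17.1 when TPM was rescaled over protein-coding genes only. Its log2 difference from the median detected gene, -0.58, was -0.67 with a pseudocount of 0.1 and -0.44 in the FASTQ-derived tables, -0.61 to -0.55 with a replicate left out, and turned to 2.08 against all protein-coding genes, whose median is 0.38 and 0.25 TPM. The 4 genes with over 50% of TPM in retained-intron models became 2 by expected counts, 2 by FASTQ-derived estimated counts, 10 at a limit of 25%, and 1 by TPM or 2 by counts when whole introns were taken from exon structure; leaving out a replicate gave 4 to 5. The further list had 49 detected genes, 26 at 5 TPM, and 49 to 52 with a replicate left out. The count past 1.5-fold between replicates stayed 0 under DESeq2 size factors, other count filters, a prior count of 0.5 and FASTQ-derived counts, and was 9 by the ratio of TPM + 1, which keeps the shift of the median gene. For single genes, the FASTQ-derived level over the median detected gene moved by more than the replicate SD of that ratio (n = 2) in 23 of 35.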
